A study of Mus musculus with 10 samples.

Results

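Tnfsf10, Tnfrsf21 and Ifngr2 encode a death ligand, a receptor with a death domain and a chain of the interferon-gamma receptor. They are 3 of the 674 genes, on 690 mRNA probes, that a supplementary list of mRNAs downregulated in aged hearts pairs with a probe of the array used here. Each gene had 1 probe in that list. The array carried 22359 mRNA probes, of which 16720 were detected and compared. The list was drawn up from these same arrays and its genes were selected on their lower level in aged hearts, so the age difference of the 3 genes is given as a description, without a test. The nearest probes on either side of the fold limit used here, among those past the limit on the adjusted p-value, had log2 differences of -1.0004 inside and -0.9999 outside it. The part of the list at hand ended at a log2 difference of -1.37 (Rsl24d1).

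Hearts came from male C57BL/6 wild-type mice aged 3 months (3m, young, n = 5) or 20 months (20m, aged, n = 5), with a separate mouse for each of 10 one-color arrays. No mouse carried a transgene or received a treatment. Mice were housed singly, and per the methods one supplier provided the young mice and another the aged mice. Age and supplier therefore cannot be told apart. RNA was taken from pulverized heart tissue, in which fewer cells of a type and less RNA per cell cannot be told apart. In the scanner output, replicates 1 and 2 of the 3m group shared a scan time (called slide 1 here). The other 3 young and all 5 aged hearts shared another (called slide 2). The split was taken from these scan times, and no slide number was read. No spot was saturated. A spot is called well above background when the scanner software marks it so against the local background, and a probe is called detected when this holds on at least 5 of the 10 arrays. Levels are log2 normalized intensities, meaning background-subtracted intensities quantile-normalized between arrays, and a difference is the 20m mean minus the 3m mean on that scale. Levels of different probes cannot be set against each other, because each probe binds its own target with its own strength.

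Tnfsf10 encodes TRAIL, a ligand of the tumor necrosis factor family that binds death receptors on a target cell and can start a caspase cascade through the adaptor FADD and caspase-8. Its transcription is known to rise with interferon in many cell types. Tnfrsf21 encodes death receptor 6, a member of the tumor necrosis factor receptor family with a cytoplasmic death domain, best known in neurons and lymphocytes. Ifngr2 encodes the signaling chain of the interferon-gamma receptor. It pairs with the ligand-binding chain IFNGR1 and brings JAK2 to the complex, from which a signal passes to the nucleus and switches on interferon target genes.

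The stretches of RNA that the arrays read are shown for Tnfrsf21 and Ifngr2, because every value of these genes rests on 1 probe of 60 bases. They are printed 5′ to 3′ in the sense of the transcript as the list gives them, with no base in capitals because no base is singled out.
Tnfrsf21: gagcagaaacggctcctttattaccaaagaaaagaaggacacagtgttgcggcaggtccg
Ifngr2: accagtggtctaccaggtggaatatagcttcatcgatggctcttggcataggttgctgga
Read in the 3 sense frames, the Tnfrsf21 probe held no stop codon in 3 frames and the Ifngr2 probe none in 2 frames. The probe of Tnfsf10 had a stop codon in each of its 3 sense frames, and its letters are not shown. GC content was equal in both printed probes and lower, at 36.7%, in that of Tnfsf10. In the RefSeq annotation of GRCm38.p6 all 3 genes lie on the plus strand. Tnfsf10 (ENSMUSG00000039304) spans chr3:27317077-27339665, Tnfrsf21 (ENSMUSG00000023915) chr17:43016555-43089188 and Ifngr2 (ENSMUSG00000022965) chr16:91547059-91564007.

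Tnfsf10, the ligand, had the largest mean difference of the 3 genes as measured and was also the most uneven of them among mice of one age. The Tnfrsf21 difference in this ranking is limited by aged signal close to background. The scanner intensity of its spot was 2192, 3236, 4239, 4856 and 1760 in young replicates 1 to 5. In aged replicates 1 to 5 it was 276.5, 181.6, 158.2, 834.5 and 530.4. All aged hearts lay below all young hearts, and aged replicates 4 and 5 stood highest within their group. The normalized level was 11.34 ± 0.48 (SD, n = 5) in young and 8.58 ± 1.00 (SD, n = 5) in aged hearts. The difference was -2.76 (standard error 0.41), or 6.76-fold lower. The lowest young heart was 0.66 above the highest aged heart on the log2 scale. The spot was well above background on all 10 arrays.

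Tnfrsf21, the death domain receptor, gave a dim signal that came close to background in aged hearts. Its intensity was 31.3, 28.2, 29.2, 30.2 and 32.7 in young replicates 1 to 5, and the spot was well above background on all 5 arrays. In aged replicates 1 to 5 it was 9.90, 5.76, 5.26, 6.69 and 9.76, and only replicate 5 was well above background. The groups did not overlap, and aged replicates 2 and 3 were the lowest. The normalized level was 4.78 ± 0.37 (SD, n = 5) in young and 3.00 ± 0.48 (SD, n = 5) in aged hearts. The difference was -1.78 (standard error 0.25). This corresponds to 3.43-fold lower as measured. When each aged array was set to no less than the lowest signal called well above background on it, the fold was 2.54. With a floor of 16 in place of 5 under the intensities, the difference was -0.78, and with background modeled by normexp on median intensities it was -0.41. Neither of these reached the fold limit.

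Ifngr2, the signaling chain of the interferon-gamma receptor, had the smallest SD of the 3 genes in both age groups. Its intensity was 278.2, 283.0, 299.3, 293.1 and 295.1 in young replicates 1 to 5. In aged replicates 1 to 5 it was 99.7, 86.5, 50.3, 63.7 and 90.6. The aged hearts all lay below the young hearts, with replicates 3 and 4 lowest. The normalized level was 7.99 ± 0.27 (SD, n = 5) in young and 6.48 ± 0.32 (SD, n = 5) in aged hearts. The difference was -1.51 (standard error 0.19), or 2.85-fold lower, with every spot well above background. The distance between the closest young and aged hearts was 0.89 on the log2 scale, against 0.88 for Tnfrsf21.

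**Figure D1:**
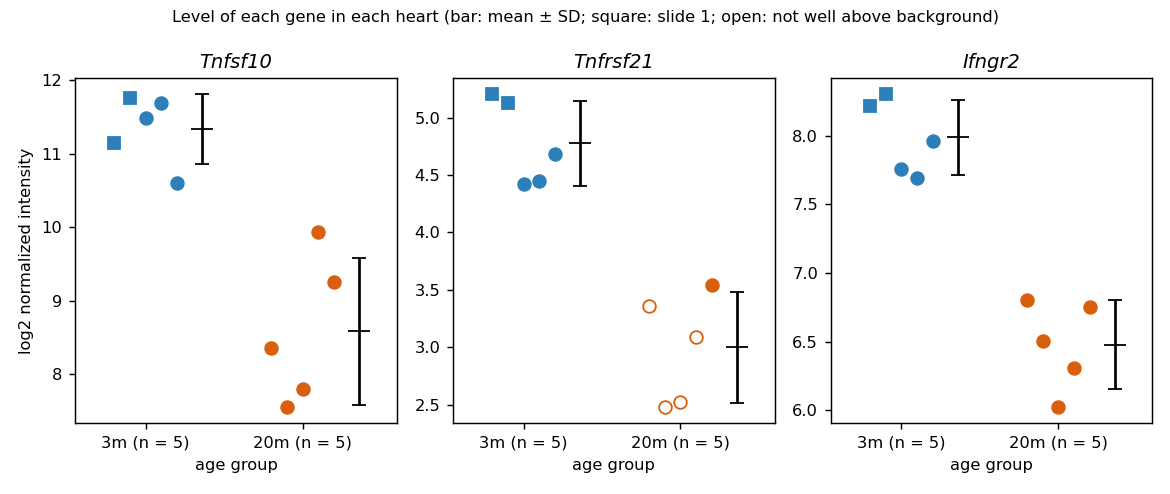
Log2 normalized intensity (vertical axis) of the 3 genes in each of 5 young (3m) and 5 aged (20m) hearts. Points are hearts, squares mark slide 1 (set by scan time), open circles were not well above background, and bars give the mean ± SD. For each gene all aged hearts sit below all young hearts, with Tnfsf10 spread most widely among aged hearts and 4 aged Tnfrsf21 values open.

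For the background to these values, limma called 1613 of the 16720 detected mRNA probes lower in aged hearts (9.65%) and 669 higher (4%), at a Benjamini-Hochberg adjusted p under 0.05 and a log2 difference of at least 1. All 3 genes were among the probes called lower, which is how the list had chosen them. The 5 aged arrays lay below the 5 young arrays at 2702 mRNA probes (16.2%), the 3 genes included, and above them at 1384 (8.28%). The median difference over all detected mRNA probes was -0.05. A lower difference than that of Tnfsf10 was found at 0.156% of mRNA probes and than that of Ifngr2 at 2.89%. No such rank is given for Tnfrsf21, which was well above background in 1 of 5 aged hearts.

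**Figure D2:**
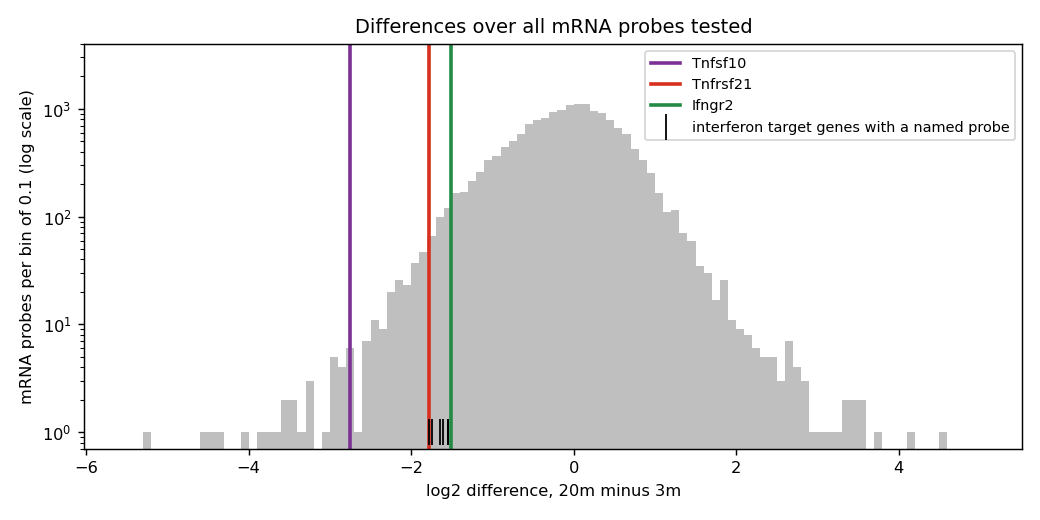
Number of detected mRNA probes (vertical axis, log scale) by log2 difference, 20m minus 3m (horizontal axis, bins of 0.1). Colored lines mark Tnfsf10 at -2.76, Tnfrsf21 at -1.78 and Ifngr2 at -1.51, and short ticks mark the 6 interferon target genes with a named probe, all between -1.78 and -1.55.

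The spread among mice of the same age entered the choice of the 3 genes through the limit on the adjusted p-value, so it is given as a description. Among aged hearts the SD of Tnfsf10 was higher than that of 98.4% of detected mRNA probes, and its intensity differed 5.27-fold between the highest and the lowest aged heart. Among young hearts its SD was higher than that of 80.0% of probes, with a 2.76-fold range of intensity. The scanner software put the error of a single Tnfsf10 spot at a median of 10.03% of its intensity in aged hearts, against a coefficient of variation of 40.3% between young and 72.2% between aged hearts. For Ifngr2 the normalized SD was higher than that of 37.0% of probes in young and 58.1% in aged hearts. Before normalization its intensity in young hearts had a coefficient of variation of 3.03%, lower than the median error of 10.03% for a single spot. On that unnormalized scale 0.167% of mRNA probes varied less in young hearts. In aged hearts the Ifngr2 coefficient of variation was 26.2%, higher than that of 62.3% of probes. For Tnfrsf21 the coefficient of variation was 5.75% in young hearts and 29.6% in aged hearts, where the median error of a single spot was 32.1%.

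Quantile normalization changed the spread within the young group. The 75th percentile of intensity differed between young arrays, from 129 to 209, so near-equal raw intensities of Ifngr2 and Tnfrsf21 became unequal levels. Within the young group the normalized level of slide 1 was above that of slide 2 by 0.46 for Ifngr2, by 0.65 for Tnfrsf21 and by 0.19 for Tnfsf10. For Ifngr2 and Tnfrsf21 both slide 1 hearts were higher than all 3 slide 2 hearts of that group, and for Tnfsf10 they were not. On slide 2 alone, with 3 young and 5 aged hearts, the differences were -2.68 for Tnfsf10 (standard error 0.52), -1.52 for Tnfrsf21 (0.26) and -1.33 for Ifngr2 (0.20). All 3 were still within the limits of the call. With slide as a block the differences were the same, because slide 1 held young hearts alone.

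A control ratio of the arrays also differed between the ages. The array carries control probes for the 3′ end and the 5′ end of GAPDH and PGK1 transcripts, and their log2 ratio rises where less signal is seen from the 5′ end. For GAPDH it was 1.98 ± 0.25 (SD, n = 5) in young and 2.59 ± 0.30 (SD, n = 5) in aged hearts, with all aged above all young arrays (two-sided exact permutation test, p = 0.00794, 0.0119 after Benjamini-Hochberg adjustment over 3 measures). With 5 arrays against 5, no lower exact p is possible. For PGK1 it was 8.29 ± 0.26 and 9.13 ± 0.13 (SD, n = 5 each; same exact test, p = 0.00794, adjusted 0.0119). The 75th percentile of intensity was 170 ± 36.4 and 126 ± 12.7 (SD, n = 5 each; same exact test, p = 0.0476, adjusted 0.0476).

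Within the age groups the 3 genes tended to be lower where the GAPDH ratio was higher. Across the 10 arrays, with each value centered on its age-group mean, Pearson's r with the ratio was -0.61 for Tnfsf10, -0.85 for Tnfrsf21 and -0.77 for Ifngr2, and Spearman's rho was -0.58, -0.67 and -0.70. Without the 2 arrays farthest from the median ratio, r was -0.50, -0.82 and -0.58. In the young group the ratio split by slide, at 1.70 and 1.71 on slide 1 and 2.14 to 2.17 on slide 2, so these values and the fit with the ratio as a covariate also carry the difference between slides. The arrays share normalization as well, and the values are descriptions. When the GAPDH ratio was entered as a covariate in the fit, the differences were -1.67 for Tnfsf10 (standard error 0.56), -0.95 for Tnfrsf21 (0.25) and -0.99 for Ifngr2 (0.22), and none of the 3 genes met the limits of the call. In the same fit 532 mRNA probes were called lower and 540 higher. Because the ratios of young and aged arrays did not overlap, the control ratio cannot be told apart from age.

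**Figure D3:**
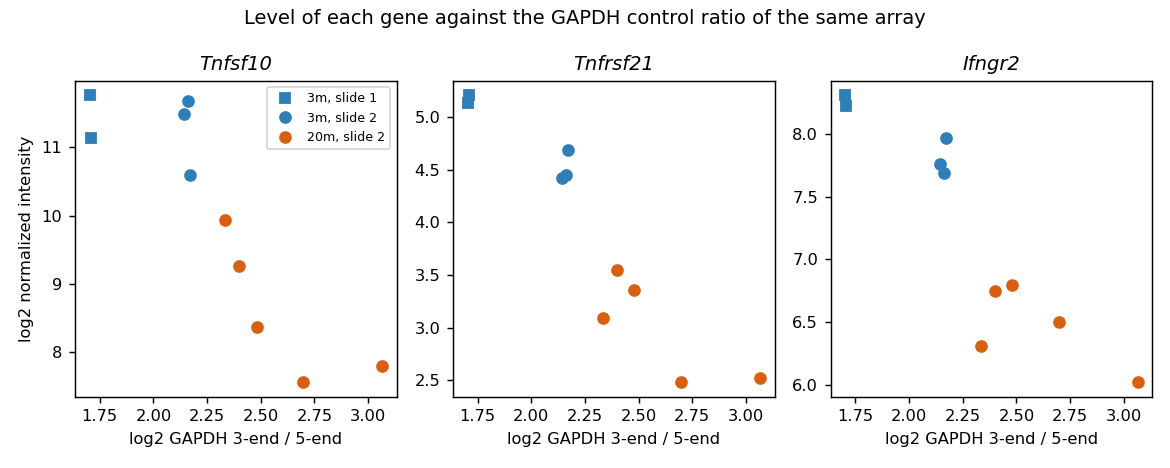
Log2 normalized intensity of each gene (vertical axis) against the log2 ratio of the GAPDH 3′-end to 5′-end control signal of the same array (horizontal axis), 1 point per heart. Young hearts (blue) lie at ratios up to 2.17 and aged hearts (orange) from 2.33 upward, and squares mark slide 1.

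Several other settings kept the differences close to the reported values. Centering on the 75th percentile or the median, the log2 table deposited by the authors, a floor of 1, outlier spots kept and the replicate number as a block gave -2.90 to -2.75 for Tnfsf10, -1.78 to -1.65 for Tnfrsf21 and -1.60 to -1.51 for Ifngr2. All 3 genes were called under each of these. When single arrays were left out one by one, the differences ranged from -3.10 to -2.50 for Tnfsf10, from -1.91 to -1.65 for Tnfrsf21 and from -1.59 to -1.40 for Ifngr2.

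**Figure D4:**
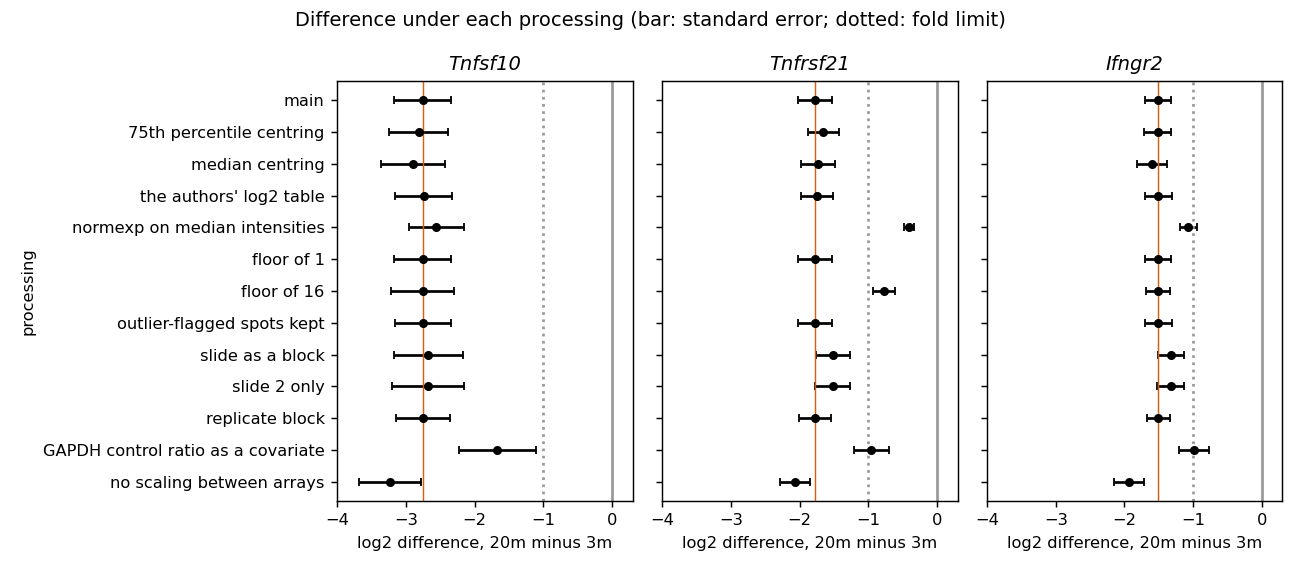
Log2 difference, 20m minus 3m (horizontal axis), of each gene under each processing (vertical axis), with bars for the standard error of the fit, an orange line at the reported value, a dotted line at the fold limit and a gray line at 0. All values lie below 0, and those nearest to 0 are -1.67 for Tnfsf10 and -0.99 for Ifngr2 with the GAPDH ratio as a covariate and -0.41 for Tnfrsf21 with normexp.

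The other genes of the death ligand and interferon-gamma pathways could be followed only where the list names a probe, and every such probe had been chosen for being lower. The part of the list at hand named 690 of the 22359 mRNA probes on the array. A count of named genes is therefore not a count of the genes of a set that were lower. Of 18 ligands of the tumor necrosis factor family, 1 was named, Tnfsf10 itself. Of 28 receptors of that family, 2 were named, Tnfrsf21 and Tnfrsf4 (OX40, a costimulatory receptor of T cells). Tnfrsf4 went from 12.43 to 9.17, a difference of -3.26 (standard error 0.19). In aged hearts it differed by no more than 0.22 on the log2 scale between mice, the narrowest range of the genes described here. None of the receptors known to bind TRAIL with a death domain was named, and their level was not analysed here.

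Of 21 genes of interferon-gamma receptor signaling, 2 were named, Ifngr2 and Camk2d, a calcium-dependent kinase with a large role in cardiomyocytes. Camk2d went from 6.87 to 4.70, a difference of -2.18 (standard error 0.26). Of 12 class II cytokine receptor genes, Ifngr2 was the 1 named, and its partner Ifngr1 was not analysed here.

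Of 45 interferon target genes, 6 were named, beside 690 of the 22359 mRNA probes on the array. They were Cxcl9, a chemokine that draws T cells and is induced chiefly by interferon-gamma, and Ifit1, Ifit3, Ifi44, Rsad2 and Herc6, which are better known as targets of type I interferon. Their median difference was -1.62, beside -1.63 over all 690 named probes, so in size they did not stand apart from the list they came from. Ifi44 went from 6.35 to 4.57, Herc6 from 7.71 to 5.97, Rsad2 from 8.27 to 6.67 and Ifit3 from 11.85 to 10.30, each with no overlap between ages. All aged arrays lay below all young arrays at 16.2% of all detected mRNA probes. Ifit3 has a near-identical copy, Ifit3b, so its signal may hold both.

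On the normalized scale Cxcl9 overlapped between the ages through aged replicate 4, and Ifit1 through aged replicates 4 and 5. The Cxcl9 intensity was 255, 284, 433, 542 and 323 in young replicates 1 to 5 and 55.5, 50.5, 54.7, 243 and 161 in aged replicates 1 to 5. These intensities did not overlap, but the normalized level of aged replicate 4, 8.26, lay above the lowest young level of 8.09. The Ifit1 intensity was 597, 1366, 941, 2599 and 960 in young hearts and 192, 188, 95.1, 726 and 556 in aged hearts. Aged replicates 4 and 5, at 9.75 and 9.32, exceeded the lowest young level of 9.30.

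Aged replicates 4 and 5 held the highest levels of their group for Tnfsf10 and for 6 of the 6 interferon target genes. Aged replicates 2 and 3 were the lowest for Tnfsf10 and for 4 of the 6 targets. The GAPDH ratio of aged replicates 1 to 5 was 2.48, 2.70, 3.06, 2.33 and 2.40, so the hearts with the highest levels had the lowest ratios. Ranked from the lowest to the highest ratio, the aged hearts were replicates 4, 5, 1, 2 and 3, which was also their order from the highest to the lowest level of Ifit1, Ifi44 and Rsad2. The part of the ratio in this shared order was not tested. Across the 10 arrays, with levels centered on the age-group means, r with Tnfsf10 was 0.91 for Cxcl9, 0.87 for Ifit1, 0.87 for Ifit3, 0.76 for Ifi44, 0.76 for Rsad2 and 0.54 for Herc6. Spearman's rho of the 6 targets ranged from 0.54 to 0.95. Without the 2 hearts farthest from the median of Tnfsf10, r was 0.37 for Herc6, 0.47 for Rsad2 and from 0.61 to 0.82 for the other 4 targets. The median r of all named probes with Tnfsf10 was 0.51 and that of all detected mRNA probes -0.02.

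Ifngr2 did not follow that order. Its highest aged hearts were replicates 1 and 5, and r with the 6 interferon targets ranged from -0.09 to 0.33. For Tnfrsf21, highest in aged replicates 5 and 1, it ranged from 0.35 to 0.54. Without the 2 hearts farthest from the median of each gene, the range was -0.15 to 0.22 for Ifngr2 and -0.0026 to 0.43 for Tnfrsf21. The median r of all named probes was 0.52 with Ifngr2 and 0.63 with Tnfrsf21, above both ranges. Between the 3 genes r was 0.82 for Tnfrsf21 and Ifngr2, 0.48 for Tnfsf10 and Tnfrsf21, and 0.10 for Tnfsf10 and Ifngr2. All these values are over the same 10 arrays, in which both slide 1 hearts were high for Tnfrsf21 and Ifngr2, and no difference between them was tested.

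**Figure D5:**
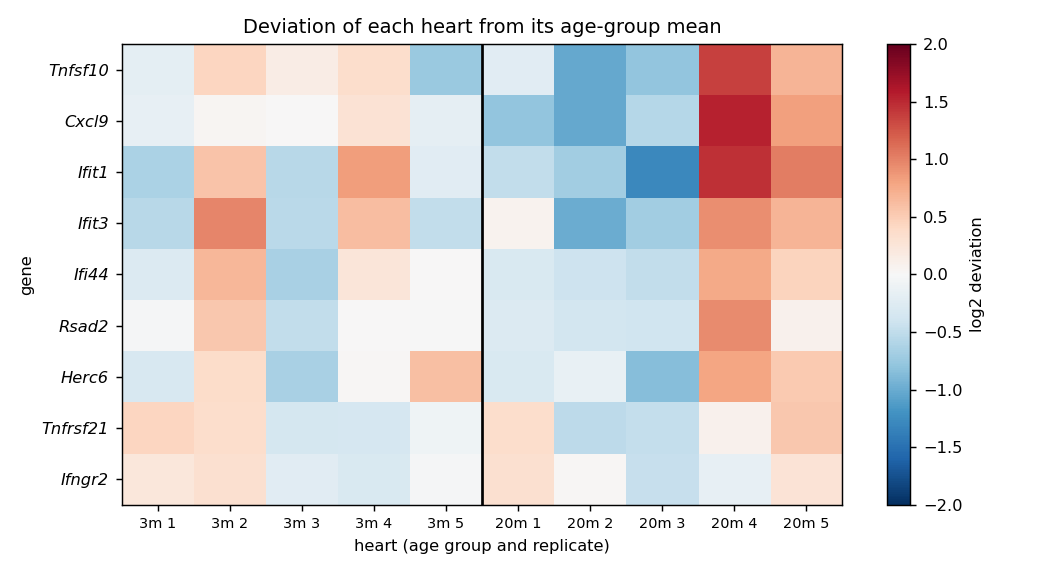
Log2 deviation (color) of each heart from the mean of its age group, for the 3 genes and 6 interferon target genes (rows) in 10 hearts (columns). The Tnfsf10 and interferon target rows are above 0 (red) in aged replicates 4 and 5, while among aged hearts the Ifngr2 row is highest in replicates 1 and 5 and below 0 (blue) in replicate 4.

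The named genes whose deviations were most like those of Tnfsf10 were Fjx1 (r = 0.97), Esm1, a product of endothelial cells (0.97), and Apol10b (0.96). Those most like Tnfrsf21 were Klhl13 (0.98) and Ube3c, a ubiquitin ligase (0.96). Those most like Ifngr2 were Slc2a12, a glucose transporter, Eif2b3, a subunit of a translation initiation factor, and Kcnn2, a potassium channel (0.98 each). Among the 5 aged arrays Tnfrsf21 and Kcnn2 were well above background on 1, Klhl13 and Slc2a12 on 2 and Eif2b3 on 3, so these likenesses rest in part on values close to background. Each is over 10 arrays and was picked as the highest of 689 named probes. A value as high as that of the first gene was reached at 0.0239% of all detected mRNA probes for Tnfsf10 and at 0.00598% for each of Tnfrsf21 and Ifngr2. These shares include the picked gene itself. For Tnfrsf21 and Ifngr2 no other probe reached it, so the share says only that the picked gene was the highest.

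Because Tnfsf10 and the interferon targets deviated together, the bases ahead of their transcription starts were searched for 2 motifs on both strands. The first was the core of the interferon-stimulated response element, GAAA followed after 2 bases of any kind by GAAA, and the second the gamma-activated site, TTCNNNGAA, where N is any base. The windows were the 160 bases before each start in RefSeq on GRCm38.p6. The response element was held by 1.72% of 32851 such windows and the gamma-activated site by 4.36%. The windows of 3 genes, all on the plus strand, are printed 5′ to 3′ to set Tnfsf10 beside a pair of targets that hold the element, with its matches in capitals. They are chr3:27316917-27317076 for Tnfsf10, chr19:34640729-34640888 for Ifit1 and chr19:34583369-34583528 for Ifit3.
Tnfsf10: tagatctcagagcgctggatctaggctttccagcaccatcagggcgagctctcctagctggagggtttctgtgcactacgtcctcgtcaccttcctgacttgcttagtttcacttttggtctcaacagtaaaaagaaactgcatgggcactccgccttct
Ifit1: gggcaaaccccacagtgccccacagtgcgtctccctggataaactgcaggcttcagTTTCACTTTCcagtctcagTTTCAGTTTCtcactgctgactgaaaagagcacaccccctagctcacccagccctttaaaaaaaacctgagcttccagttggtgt
Ifit3: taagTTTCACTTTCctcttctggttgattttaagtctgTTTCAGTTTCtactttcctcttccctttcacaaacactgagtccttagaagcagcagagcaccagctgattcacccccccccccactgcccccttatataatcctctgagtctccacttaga
The response element matched at 2 places in the window of Ifit1, at 2 in that of Ifit3 and at 1 in that of Rsad2. None was found for Tnfsf10, Tnfrsf21, Ifngr2, Cxcl9, Ifi44 or Herc6, and the gamma-activated site was found in none of these 9 windows. Only exact matches within the 160 bases were counted, so near matches and matches farther away were missed. The Tnfsf10 window holds tttcactttt, which differs from the element, read on the other strand, in its last letter. A match here describes letters in a window and not a site in use.

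Of the cell type markers, Tek, a receptor of endothelial cells, and Cd28, a receptor of T cells, were named, and the others had no named probe. None of the 6 cardiomyocyte markers was among them, so the tissue label could not be checked. Tek intensity was 22.6 to 30.7 in young hearts and 2.98 to 9.06 in aged hearts, where no array had it well above background, so its level was at least 2.23-fold lower. Cd28 went from 5.66 to 4.27. Centered on the age-group means, r with Tnfsf10 was 0.72 for Tek and 0.53 for Cd28, with Tnfrsf21 0.82 and 0.76, and with Ifngr2 0.52 and 0.76. Among aged hearts Tnfrsf21 was well above background in replicate 5 only, and Tek in none. The r values with either gene therefore rest in part on values close to background. Being 1 of 5 endothelial and 1 of 6 T cell markers on the lists, they do not measure how many such cells the hearts held, and their part in the values of the 3 genes was not tested.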

How the data were processed

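For each array the authors deposited scanner output in which Agilent Feature Extraction (version 11.0.1.1 in the file headers, 9.1 in the submitters' processing notes) gives a background-subtracted intensity per spot, unscaled between arrays. Their processed log2 values, quantile-normalized and floored by the authors, served as an alternative. Groups and replicates followed the sample labels. Intensities of the 60641 probes in that table were quantile-normalized, with flagged outlier spots missing, floored at 5 and put on the log2 scale. A further 182 duplicated probe names absent from their table were left out. Detected probes (well above background on 5 or more of 10 arrays) entered 1 linear model with age group (limma 3.58.1, R 4.3.3), with Benjamini-Hochberg adjustment within mRNA probes. Single values were compared by exact permutation over 252 assignments (scipy 1.17.1). The script was tested on simulated data.

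The 3 genes and all gene lists were chosen with earlier results of these data known. Named genes were the 3 genes, members of the lists with a named probe and, per gene, the 3 named probes with the highest centered correlation; Rsl24d1 and Ifit3b were named after values were seen. Some named genes are not reported here. Gene names and probe sequences came from a supplementary sheet held in part, 690 probes; its values and the authors' fold changes and p-values were not used. Array number and background, not read depth, limit precision. Alternatives covered scaling, background, floor, detection, flags, slide, replicate block, control ratio, test, adjustment, fold limit and left-out arrays.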

Additional observations from a re-analysis of the deposited data

How the results depend on the processing

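Under 12 alternatives besides left-out arrays, all 3 genes stayed lower in aged hearts. Normexp on median intensities gave -0.41 for Tnfrsf21 and -1.07 for Ifngr2, with 547 mRNA probes called lower and 247 higher. A floor of 16 gave -0.78 for Tnfrsf21. The GAPDH ratio as a covariate gave -1.67 for Tnfsf10, -0.95 for Tnfrsf21 and -0.99 for Ifngr2, with 532 probes called lower, 49.6% of all calls against 70.7% as reported. Slide 2 alone gave 1073 lower. A Student t-test in place of limma, after Benjamini-Hochberg adjustment, gave 1505 lower and 537 higher. Without a fold limit 3695 were called lower and 2124 higher. No scaling between arrays, chosen after seeing the data, gave -1.93 for Ifngr2, 3502 lower and 214 higher (94.2% lower) and moved the median of all mRNA probes to -0.44, against -0.05 as reported; median centering moved it to -0.11. The cause of these changes was not tested, except that a floor of 16 replaces every aged Tnfrsf21 value. With single arrays left out one by one, the probes called lower ranged from 1264 to 1854 and those called higher from 579 to 762. With the replicate number as a block, 1612 were called lower and 669 higher and no call of the 3 genes changed. Same-numbered young and aged arrays did not deviate together (r from -0.37 to 0.24 across mRNA probes), so the numbers were not taken as pairs. Dim signal limits Tnfrsf21, which was well above background in 1 of 5 aged hearts.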
